A study of Mus musculus with 24 samples.

Results

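Oocytes treated with the histone deacetylase inhibitor SAHA (vorinostat) were compared with oocytes exposed to microplastics (PSMPs) in culture, by the deposited gene counts of 2 SAHA libraries and 2 in vitro PSMPs libraries. These 4 samples are a subset of 12 RNA sequencing samples and of 24 samples in the series. The 4 were chosen by their labels, not by any measured value. The other RNA groups, used to estimate the spread and as a reference for levels, were oocytes without treatment (con), oocytes exposed in the animal (in vivo PSMPs), cultured controls (con-in vitro) and exposed oocytes that overexpress Hdac3 (PSMPs & OE-Hdac3). All are mouse oocytes, and each library was made from 5 pooled cells, which the design text calls embryos and the labels call oocytes. The title of the series gives PSMPs exposure at low dose, insufficient histone deacetylases and slowed meiotic maturation as its subject. The comparison of SAHA with exposure bears on the question of how far blocking the deacetylases and exposing the oocyte give the same transcripts. Strain, age, oocyte stage, the dose and time of SAHA and of PSMPs, whether SAHA oocytes also met PSMPs, and whether replicates came from separate animals are not given in the sources used here. The p-values therefore measure the spread between replicate libraries, pooled over the RNA groups, which may be technical.

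Histone deacetylases remove acetyl groups from lysines of histone tails, and acetyltransferases add them. The zinc-dependent deacetylases of classes I, II and IV are the targets of SAHA, which blocks the enzymes without removing their transcripts, while the sirtuins use NAD and are not blocked by it. H4K16, the lysine named in the design text, is acetylated mainly by Kat8 (MOF). A fully grown oocyte transcribes little and lives on stored maternal mRNA, so that levels there also follow how stored transcripts are kept or degraded. In pooled oocytes, fewer cells of a type and less RNA per cell cannot be told apart.

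No gene separated the 2 groups after adjustment in edgeR's test. Of 16736 genes tested with edgeR's quasi-likelihood test, 0 (0%) had a Benjamini-Hochberg adjusted p under 0.05, and the lowest adjusted p was 1. At an unadjusted p under 0.05 there were 407 genes (2.43%), of which 141 (0.842%) were higher and 266 (1.59%) lower in SAHA. DESeq2's Wald test called 5 genes (0.0299%), which are Tmem14c, higher in SAHA, and H2ax, Pla2g4d, Slc14a1 and the unnamed model Gm38025, lower in SAHA. Both SAHA libraries lay above both in vitro PSMPs libraries for 3879 genes (23.2%) and below both for 3073 (18.4%). These shares are the background against which the counts for gene groups below are read. Levels are CPM, the counts scaled to library size with TMM factors, and differences are log2 SAHA minus in vitro PSMPs with their standard errors.

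The genes of smallest p in each direction by edgeR's test were Tmem14c and Zfp296, and the promoter of each is printed for that reason. Of the pair, Zfp296 was not called by DESeq2. Tmem14c, a mitochondrial membrane protein used in heme synthesis, has its promoter at chr13:41016000-41016299 on the plus strand. Zfp296, a zinc finger protein, has its promoter at chr7:19577037-19577336 on the plus strand. Both run from 250 bases before to 50 bases after the start that RefSeq gives for build GRCm38.p6, and capitals mark matches, on either strand, to the GC box GGGCGG, to the box named CCAAT and to the E-box CACGTG.
Tmem14c: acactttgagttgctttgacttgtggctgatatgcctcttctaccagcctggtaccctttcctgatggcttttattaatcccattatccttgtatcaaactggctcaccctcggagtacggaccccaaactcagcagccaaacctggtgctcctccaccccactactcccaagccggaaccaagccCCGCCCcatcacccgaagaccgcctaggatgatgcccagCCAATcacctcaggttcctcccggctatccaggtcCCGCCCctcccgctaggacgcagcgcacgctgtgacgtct
Zfp296: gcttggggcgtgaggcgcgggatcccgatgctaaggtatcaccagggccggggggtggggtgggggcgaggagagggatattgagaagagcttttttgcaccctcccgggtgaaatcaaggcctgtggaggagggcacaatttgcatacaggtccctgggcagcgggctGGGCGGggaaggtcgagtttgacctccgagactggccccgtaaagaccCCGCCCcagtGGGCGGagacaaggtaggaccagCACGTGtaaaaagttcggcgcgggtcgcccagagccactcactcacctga
The Tmem14c promoter held 2 GC boxes and 1 CCAAT box, and that of Zfp296 held 3 GC boxes and 1 E-box. A TATAAA box, the cAMP response element in its form TGACGTCA and the NRF1 consensus were also searched for and were not in these windows. Of the 27025 RefSeq promoters of this length, 35.9% held a GC box, 37.9% a CCAAT box and 7.24% an E-box of these letters. For the 11519 tested genes with a promoter the shares were 58.9%, 39.1% and 9.91%, so a GC box was common among them. A promoter was matched to 68.8% of the genes tested, so these shares leave out the rest. Promoter letters of genes higher and lower in SAHA are not compared here.

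The 4 libraries detected similar numbers of genes, though their total counts differed. The in vitro PSMPs libraries held 10.0 M and 12.6 M counts and the SAHA libraries 19.2 M and 19.4 M, so that 3 counts corresponded to between 0.154 and 0.299 CPM. They detected between 20284 and 20571 genes with at least 1 count, against 11640 to 12843 in the controls of either kind. At the lowest of the 4 totals, 20284 and 19867 genes would be expected in in vitro PSMPs, and fewer, 19113 and 19232, in SAHA. The 45 oocyte genes summed to 81340 and 106200 CPM in in vitro PSMPs and to 110300 and 115200 CPM in SAHA. The 22 cumulus and granulosa markers summed to between 54.3 and 88.9 CPM, lowest in in vitro PSMPs replicate 1, and Amh, Amhr2, Inhbb and Npr2 were at 0 in all 4 libraries. Of the 17 tested, 14 had a fitted level higher in SAHA and 0 lower, and 3 were at 0 in all 4 libraries. Both SAHA libraries lay above both exposed ones in 3 of the 17, beside 23.2% of all genes tested. By edgeR's test 0 of the 17 had an unadjusted p under 0.05. Most of the sum was Cyp19a1, the aromatase, at 28.0 and 48.5 CPM in the exposed and at 39.7 and 48.3 CPM in the SAHA libraries. Inha, the inhibin alpha subunit, was at 0.24 and 0.24 CPM against 1.53 and 0.97 CPM. The 15 blood and macrophage markers summed to between 7.75 and 13.6 CPM with Ptprc, Adgre1, Lyz2 and the hemoglobin genes Hbb-bs, Hbb-bt and Hba-a2 at 0, the 16 stromal, endothelial and epithelial markers to between 126.9 and 240.6 CPM, mostly Cdh1, with Col1a2, Col3a1, Lum and Cdh5 at 0, and the 15 male germ cell markers to between 100.7 and 155.5 CPM, mostly Odf2, with Prm1, Acr and Izumo1 at 0. Their part in the results below was not tested. The labels name no batch.

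Most fitted differences were small, while likeness could be shown for few genes in the fit of all groups. Of 6918 genes whose mean over the 4 libraries reached 10 CPM, 6285 (90.8%) differed by less than 2-fold between the groups, with a median absolute log2 difference of 0.38. Only 10 of them were 4-fold or more higher in SAHA and 52 were 4-fold or more lower. A missing call does not show likeness, so the 95% interval of each difference was also read. That interval lay inside 2-fold in both directions for 366 of all genes tested (2.19%), 363 of which were among those of at least 10 CPM (5.25%). The median interval there reached 1.36 log2 units to either side, so in this fit most genes could be shown neither to differ nor to be alike. Its width takes in the spread of the other groups. The biological coefficient of variation was 71.9% here and 36.8% with only the SAHA and in vitro PSMPs libraries, where 1651 genes were alike. With con and con-in vitro left out it was 33.4%, and 2396 genes were alike.

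The 10 genes with the most counts among those alike included known oocyte genes such as H1f8, Bmp15 and Dppa3. H1f8, the linker histone of the oocyte, was at 10810 and 12820 CPM in in vitro PSMPs and at 14020 and 15600 CPM in SAHA, a difference of 0.33 with a 95% interval from -0.24 to 0.90. Bmp15, a growth factor that the oocyte secretes to its cumulus cells, was at 4401 and 6451 CPM against 6099 and 6888 CPM, a difference of 0.26 (-0.41 to 0.93). The SAHA libraries were both above for H1f8 and overlapped with exposure for Bmp15. Dppa3, a maternal factor that protects DNA methylation in the zygote, was at 3357 and 3944 CPM against 3814 and 3598 CPM, a difference of 0.02 (-0.90 to 0.95). Fbxw24, an F-box protein gene, was at 5228 and 5112 CPM against 4860 and 5463 CPM, a difference near 0 (-0.66 to 0.66). The others with most counts were Accsl, Ccdc69, Oas1e, Pkd2l2, Depdc7 and Mdm4, an inhibitor of p53. Mdm4 was at 1704 and 1644 CPM in in vitro PSMPs and at 1316 and 1441 CPM in SAHA, with an interval from -0.96 to 0.40.

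Likeness between libraries did not follow the group labels closely. Across 16736 genes, log2(CPM + 1) correlated at 0.98 between the SAHA replicates and at 0.96 between the in vitro PSMPs replicates. In vitro PSMPs replicate 2 correlated at 0.978 with SAHA replicate 1 and 0.975 with SAHA replicate 2, while replicate 1 correlated at 0.944 and 0.948. Genes of 1 library are not independent replicates, so these values describe the libraries and carry no test. Of the 6918 genes, 94.9% agreed within 2-fold between the SAHA replicates and 83.7% between the in vitro PSMPs replicates. For in vitro PSMPs replicate 2 the share was 95% with SAHA replicate 1 and 92.7% with SAHA replicate 2, and for replicate 1 it was 75.7% and 76.0%. An exposed library was thus as near to the SAHA libraries as these were to each other.

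**Figure D1:**
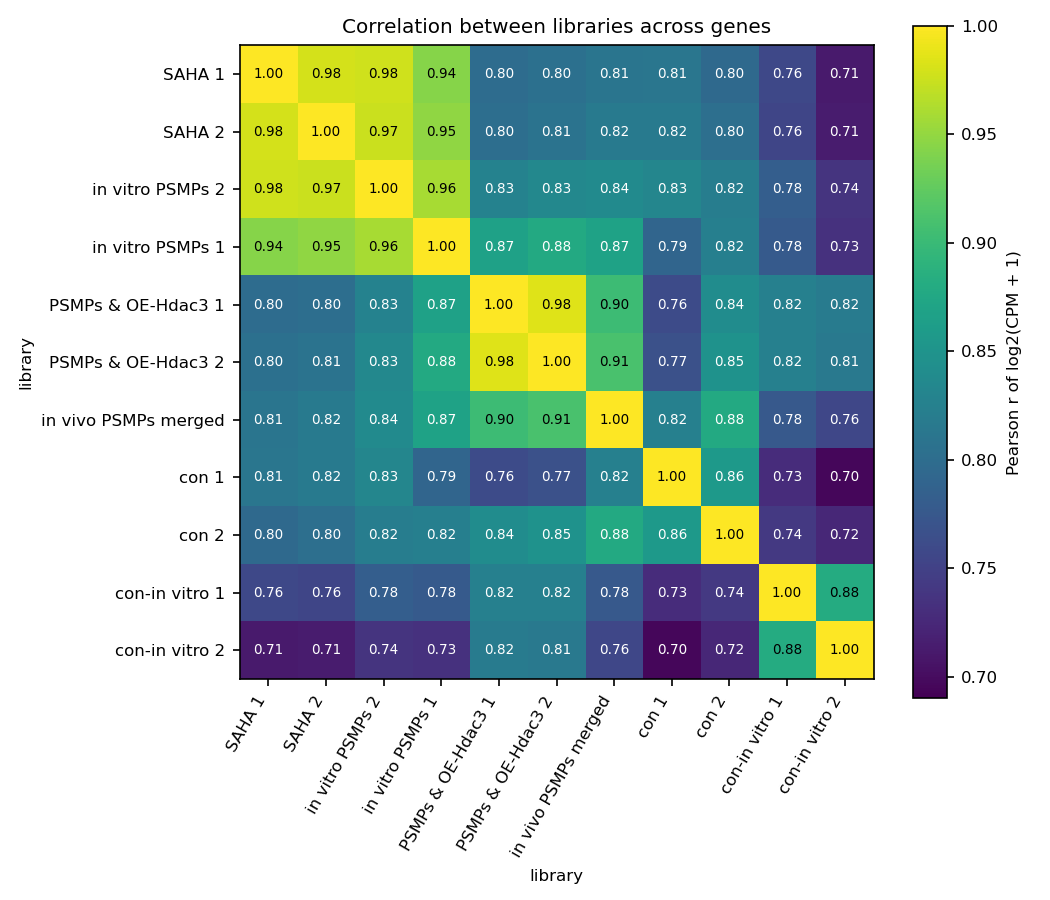
Pearson correlation of log2(CPM + 1) across 16736 genes for each pair of the 11 libraries, in color and as printed in each cell. The SAHA libraries and in vitro PSMPs replicate 2 form a block at 0.97 to 0.98, and in vitro PSMPs replicate 1 correlates at 0.94 to 0.96 with them.

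In vitro PSMPs replicate 1 stood apart in the direction of the oocytes that overexpress Hdac3 and of those exposed in the animal. It correlated at 0.868 and 0.878 with the PSMPs & OE-Hdac3 libraries, against 0.828 and 0.835 for replicate 2. With the merged in vivo PSMPs columns it correlated at 0.869, against 0.838 for replicate 2. Those columns correlated at 0.903 and 0.911 with the PSMPs & OE-Hdac3 libraries. Across 16736 genes the log2 difference between in vitro PSMPs replicates 1 and 2 correlated at 0.454 with that between PSMPs & OE-Hdac3 and SAHA, a comparison with which it shares no library. The same difference between the SAHA replicates correlated at -0.0337 with that between PSMPs & OE-Hdac3 and in vitro PSMPs. The difference of in vitro PSMPs replicate 1 minus 2 also ran with gene length. Its median was -0.06 in the shortest of 4 groups of genes (median length 1750 bases) and -0.58 in the longest (9680 bases). SAHA minus in vitro PSMPs had medians of 0.09 and 0.14 there. These groups leave out part of the 16736 genes, over all of which the median of SAHA minus in vitro PSMPs was 0.05.

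**Figure D2:**
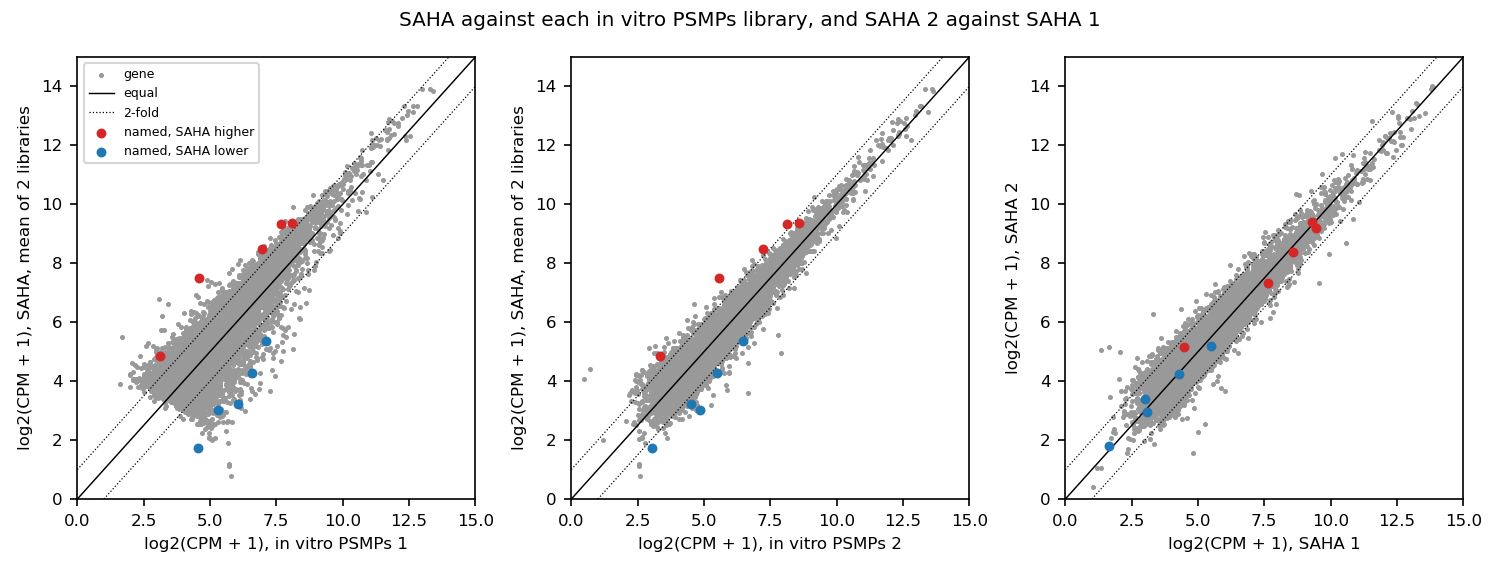
Level of each of 6918 genes, as log2(CPM + 1), in the mean of the SAHA libraries against in vitro PSMPs replicate 1 (left) and replicate 2 (middle), and in SAHA replicate 2 against replicate 1 (right). Dotted lines mark 2-fold. Colored points are the 10 genes of smallest p named in the text. The cloud is wider on the left, where about 76% of genes are within 2-fold of each SAHA library, than in the other panels.

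The 5 genes of smallest p higher in SAHA were taken from those without overlap between the groups, so their separation is part of the choice. Tmem14c was at 22.9 and 46.8 CPM in in vitro PSMPs and at 196 and 160 CPM in SAHA. Both SAHA libraries were above both exposed ones, with a log2 difference of 2.35 ± 0.49 (SE, n = 2 and 2; edgeR's quasi-likelihood test, unadjusted p = 0.000953, adjusted p = 1). It was at 189 and 304 CPM in PSMPs & OE-Hdac3 and at 52.9 and 64.8 CPM in con, and of the other groups con-in vitro replicate 2, at 34.4 CPM, was the only library below an exposed one. DESeq2 called it with a log2 difference of 2.41 ± 0.55 and an adjusted p of 0.0387.

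A pair of the 5 encode histone demethylases. Kdm6b, which removes methyl groups from H3K27, was at 123 and 148 CPM in in vitro PSMPs and at 380 and 336 CPM in SAHA (1.40 ± 0.35). The exposed libraries were close to con, at 129 and 125 CPM, and the SAHA libraries lay above all but the cultured controls, which were at 1564 and 2811 CPM. Kdm1b, the demethylase of H3K4 needed for maternal imprints in the growing oocyte, was at 269 and 382 CPM against 627 and 682 CPM (1.01 ± 0.30). In SAHA it lay above every other library, the highest of which was con replicate 1 at 418 CPM. Smn1, which assembles the small nuclear ribonucleoproteins of the spliceosome, was at 202 and 275 CPM against 693 and 592 CPM (1.43 ± 0.38). Wasf1, an activator of actin branching, was at 7.62 and 9.05 CPM against 21.3 and 34.8 CPM (1.75 ± 0.42). Among the other groups Wasf1 ran from 14.2 CPM in con replicate 2 to 934 CPM in con-in vitro replicate 1, above both exposed libraries throughout.

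The 5 genes of smallest p that were lower in SAHA were lower there than in every other library. Zfp296 was at 65.5 and 21.6 CPM in in vitro PSMPs and at 6.96 and 9.55 CPM in SAHA (-2.40 ± 0.54). The exposed replicates stood far apart, and the difference was -1.38 without replicate 1. H2ax, the histone variant phosphorylated at DNA breaks, was at 38.3 and 27.7 CPM against 7.41 and 6.71 CPM (-2.22 ± 0.52). Its other libraries ran from 14.6 CPM in in vivo PSMPs to 81.3 CPM in PSMPs & OE-Hdac3, and DESeq2 called it with -2.17 ± 0.44 and an adjusted p of 0.0141. Snrnp40, a protein of the U5 spliceosomal particle, was at 94.2 and 44.0 CPM against 18.4 and 18.1 CPM (-1.92 ± 0.45). Tdrd5, a Tudor protein of the germ line, was at 138.5 and 88.3 CPM against 44.0 and 36.0 CPM (-1.50 ± 0.35). Slc15a4, a lysosomal carrier of histidine and peptides, was at 22.2 and 7.19 CPM against 2.15 and 2.45 CPM (-2.67 ± 0.66), and at -1.64 without in vitro PSMPs replicate 1. In each of these 5 genes in vitro PSMPs replicate 1 was above replicate 2.

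**Figure D3:**
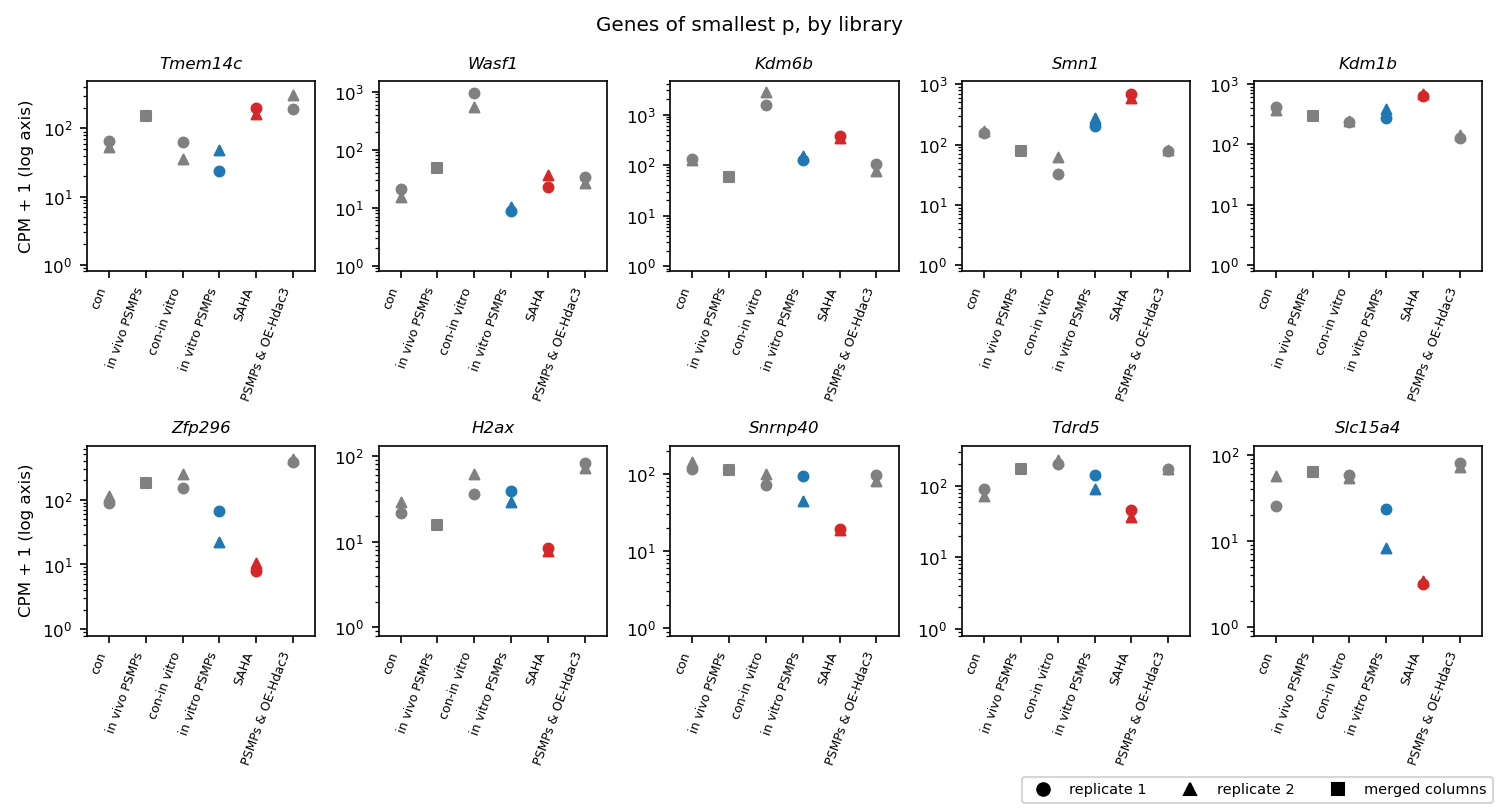
Level (CPM + 1, log axis) of the 5 genes of smallest p higher in SAHA (top) and lower in SAHA (bottom) in each library. SAHA is red, in vitro PSMPs blue and the other groups gray, circles and triangles are replicates 1 and 2, and the square is the merged in vivo PSMPs columns. The genes were chosen for red and blue points that do not overlap, and in the bottom row the blue circle (replicate 1) lies above the blue triangle (replicate 2).

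That order of the exposed replicates was common among the candidates. Of 142 genes lower in SAHA at unadjusted p under 0.05 that averaged 10 CPM or more in in vitro PSMPs, replicate 1 was above replicate 2 in 126, and the mean of PSMPs & OE-Hdac3 was above that of in vitro PSMPs in 120. Of 74 higher in SAHA with at least 10 CPM there, replicate 1 was above replicate 2 in 9, and the mean of PSMPs & OE-Hdac3 was below that of SAHA in 66. Over all 6918 genes replicate 1 was above replicate 2 in 2290, and the mean of PSMPs & OE-Hdac3 was above that of in vitro PSMPs in 2779 and below that of SAHA in 4195. The candidates were picked with these in vitro PSMPs and SAHA libraries, so the counts are descriptions.

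The deacetylases themselves, which SAHA blocks as enzymes, gave 0 calls and 0 unadjusted p under 0.05 in either class. Among class I, Hdac2 was at 96.5 and 92.3 CPM in in vitro PSMPs and at 93.9 and 94.2 CPM in SAHA, a difference of -0.01 ± 0.59. Hdac8 was at 18.2 and 18.4 CPM against 20.8 and 20.4 CPM (0.17 ± 1.03). Their 4 libraries lay close together, while the intervals, which take their spread from all groups, ran past 2-fold. Hdac3, a deacetylase that works with the NCoR and SMRT corepressors, was at 15.3 and 9.37 CPM against 7.47 and 7.17 CPM (-0.75 ± 0.44, unadjusted p = 0.121). Both SAHA libraries were lower, with a difference of -0.35 without in vitro PSMPs replicate 1. Hdac1 was at 4.38 and 3.96 CPM against 10.2 and 12.8 CPM (1.46 ± 1.53), higher in both SAHA libraries.

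The 6 tested genes of classes II and IV had a median of 0.94, which was 0.06 without SAHA replicate 2, and 2 of them, Hdac4 and Hdac9, lay higher in SAHA without overlap. Hdac4 was at 8.19 and 24.7 CPM in in vitro PSMPs and at 31.7 and 26.8 CPM in SAHA (0.83 ± 0.90), a difference of 0.25 without in vitro PSMPs replicate 1. Hdac9 was at 2.51 and 7.43 CPM against 8.54 and 14.8 CPM (1.23 ± 0.87), a difference of 0.65 without that library. Hdac6, the cytoplasmic deacetylase of tubulin, was at 6.73 and 5.41 CPM against 2.43 and 9.73 CPM, with overlap and a difference of 0.00 ± 1.48. Hdac7, Hdac10 and Hdac11 were under 1 CPM in all 4 libraries, Hdac7 with a single count in SAHA replicate 2, and Hdac5 did not pass the filter on low counts. Of the 7 sirtuins, 3 had a fitted level above and 4 below that of exposure. Sirt4, a mitochondrial sirtuin, was at 41.8 and 78.4 CPM against 93.1 and 85.0 CPM (0.57 ± 0.54), and Sirt5, which removes succinyl groups, at 5.67 and 2.42 CPM against 2.32 and 1.99 CPM (-0.91 ± 0.92). Kat8 was at 141 and 31.8 CPM against 47.9 and 85.9 CPM, with both SAHA libraries between the exposed replicates.

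**Figure D4:**
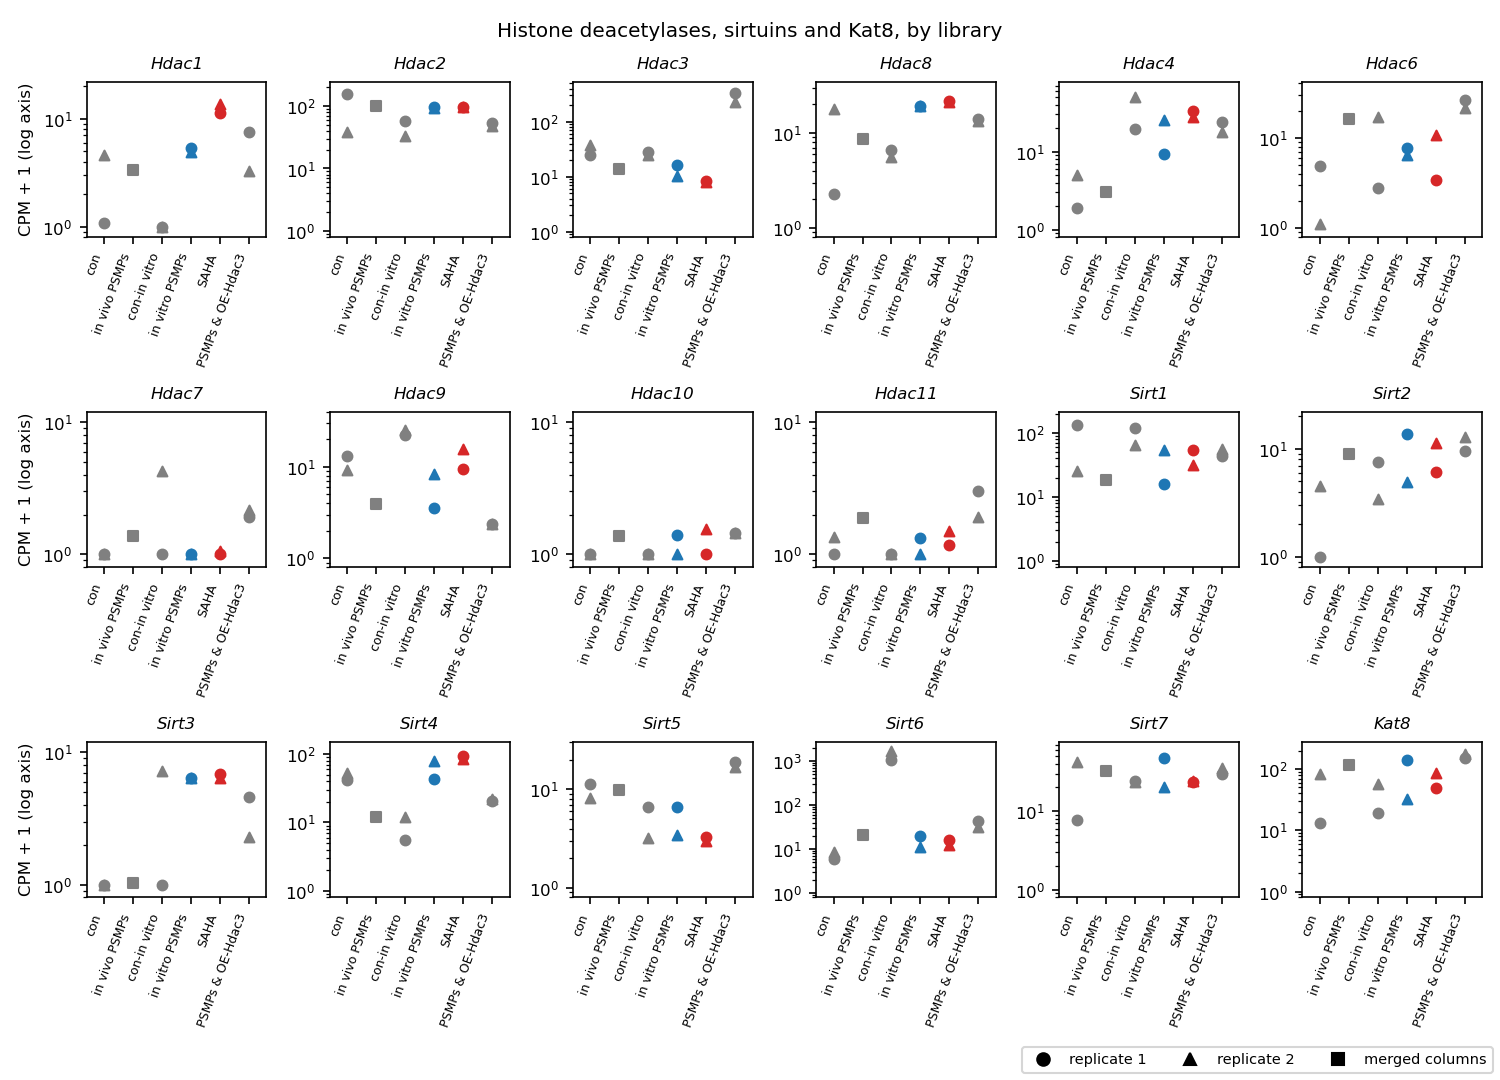
Level (CPM + 1, log axis) of the histone deacetylase and sirtuin genes tested and of Kat8 in each library, with colors and symbols for SAHA (red), in vitro PSMPs (blue), the other groups (gray), replicate 1 (circle), replicate 2 (triangle) and merged columns (square). Hdac2 and Hdac8 are level across the red and blue points, and Hdac3 is highest in PSMPs & OE-Hdac3.

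Partners and counterparts of the deacetylases gave few candidates. Of 29 tested corepressor subunits, 22 had a fitted level above exposure and 10 lay above without overlap, with a median of 0.36 that was 0.10 without in vitro PSMPs replicate 1. Rbbp7, a histone-binding subunit shared by several deacetylase complexes, was at 4796 and 6190 CPM against 8036 and 7554 CPM (0.50 ± 0.34). Mbd3, which helps build the NuRD complex, was at 9.24 and 6.22 CPM against 3.34 and 4.44 CPM (-0.99 ± 0.62). The 15 acetyltransferases had a median of 0.27, which turned to -0.17 without in vitro PSMPs replicate 1, and the 12 members of the MOF complexes a median of 0.07 beside 0.05 over all genes. The 18 bromodomain readers, which bind acetylated histones, had a median of 0.20, which turned to -0.19 without in vitro PSMPs replicate 1.

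Genes often raised by deacetylase inhibitors in somatic cells mostly had higher fitted levels in SAHA, several of them at low counts. Of 9 tested, 7 had a fitted level above exposure, 4 lay above without overlap and 1 had an unadjusted p under 0.05, with a median of 0.83 against 0.05 over all genes tested. The median was 0.48 without in vitro PSMPs replicate 1 and 1.47 without replicate 2. Cdkn1a, the inhibitor of cyclin-dependent kinases p21, was at 0.65 and 1.37 CPM against 10.3 and 8.64 CPM (3.22 ± 1.35). Klf4, a transcription factor, was at 0.24 and 0.40 CPM against 2.49 and 1.19 CPM (2.48 ± 1.31), with few counts behind the exposed values. Txnip, an inhibitor of thioredoxin, was at 394 and 883 CPM against 403 and 712 CPM, and H1f0 at 33.0 and 36.2 CPM against 21.4 and 42.3 CPM, both overlapping. Id2 and Fos are not on this list. They were picked after their values were seen, so they add nothing to its counts. Id2, an inhibitor of helix-loop-helix factors, was at 9.81 and 23.3 CPM against 117 and 79.1 CPM (2.56 ± 0.81) and at 0 in the 4 control libraries. Fos, an immediate early transcription factor, was at 0.24 and 0.40 CPM against 8.83 and 10.2 CPM (4.85 ± 1.53).

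Other chromatin genes differed in single members. Of 36 genes of histone methylation, 2 higher and 1 lower had an unadjusted p under 0.05, namely Kdm6b and Kdm1b above and Setdb1. Setdb1, a methyltransferase of H3K9, was at 55.6 and 47.3 CPM in in vitro PSMPs and at 32.0 and 27.2 CPM in SAHA (-0.80 ± 0.35). It lay below all other libraries in SAHA, where the others outside in vitro PSMPs were at 146 to 230 CPM. Of 17 genes of DNA methylation and imprint protection, 0 had an unadjusted p under 0.05. Of 16 m6A factors, which write, erase or read the methyl mark on mRNA, 8 lay above and 2 below without overlap. In all 11 had a fitted level above exposure and 5 below. Their median was 0.34, and 0.06 when libraries were scaled by their totals alone. Rbm15, a guide of the methyltransferase, was at 34.5 and 47.7 CPM against 69.0 and 75.9 CPM (0.82 ± 0.34).

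Genes of oocyte identity had a median of 0.28 over 44 tested, 10 above and 7 below without overlap, shares near the 23.2% and 18.4% of all genes. The median was 0.07 without in vitro PSMPs replicate 1 and 0.08 without SAHA replicate 2. Zp2, a zona pellucida protein, was at 2150 and 3328 CPM in in vitro PSMPs and at 5392 and 5664 CPM in SAHA (1.01 ± 0.61, unadjusted p = 0.131). Zp1, of the same coat, was at 1606 and 1776 CPM against 2850 and 3395 CPM (0.88 ± 0.58). Ooep, of the subcortical maternal complex, was at 904.5 and 1006 CPM against 468 and 459 CPM (-1.04 ± 0.58), and Gdf9, a growth factor that acts with Bmp15, at 5331 and 7092 CPM against 4456 and 4830 CPM (-0.42 ± 0.33). The 4 genes did not overlap between the groups, and Zp2 and Zp1 ran against Ooep and Gdf9. Zar1l, which binds stored maternal mRNA, had an unadjusted p of 0.0311, at 172.5 and 29.1 CPM against 20.9 and 13.3 CPM (-2.56 ± 1.00), and its difference was -0.77 without in vitro PSMPs replicate 1.

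Meiosis genes included 2 that drive or end M phase. Ccnb1, cyclin B1 of the maturation-promoting factor, was at 3474 and 5139 CPM in in vitro PSMPs and at 7431 and 7781 CPM in SAHA (0.82 ± 0.35, unadjusted p = 0.0418). It was the member of smallest p among 39 meiotic cell cycle genes, of which 8 lay above and 8 below without overlap. Cdc20, the activator of the anaphase-promoting complex, was at 202 and 313 CPM against 471 and 584 CPM (1.03 ± 0.36). The complex subunits Anapc4, at 128.5 and 90.5 CPM against 49.4 and 38.6 CPM (-1.32 ± 0.53), and Anapc7, at 43.9 and 36.2 CPM against 22.7 and 20.8 CPM (-0.88 ± 0.39), were lower in SAHA. The activator and these subunits thus lay on opposite sides within the list of 16 genes.

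The cAMP and protein kinase A pathway, which holds the oocyte in meiotic arrest, was fitted higher in SAHA in 13 of 13 genes. Among the 6918 genes of at least 10 CPM, 4151 were fitted higher and 1928 lay above without overlap. Of the 13, 9 lay above without overlap and 1 had an unadjusted p under 0.05. Their median was 0.55, ran from 0.31 to 0.89 over 26 alternatives, and was 0.33 without in vitro PSMPs replicate 1. Prkaca, a catalytic subunit of the kinase, was at 19.3 and 38.5 CPM in in vitro PSMPs and at 49.5 and 78.5 CPM in SAHA (1.15 ± 0.46). The regulatory subunit Prkar2a was at 64.0 and 107 CPM against 149 and 158 CPM (0.84 ± 0.44). Prkar1a, another regulatory subunit, was at 132 and 223 CPM against 248 and 272 CPM (0.55 ± 0.36). In each of these 3 genes in vitro PSMPs replicate 1 was the lowest library of the 4. Gpr3, the receptor that keeps cAMP high, was at 63.9 and 77.9 CPM against 65.1 and 130.5 CPM, and Pde3a, which degrades cAMP, at 49.2 and 110 CPM against 111 and 78.7 CPM, both overlapping.

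Genes of protein synthesis and breakdown had list medians below 0 that depended on 1 exposed library. Of 75 cytosolic ribosomal proteins, 60 had a fitted level below that of exposure, 26 lay below without overlap and 4 above, and the median was -0.47. The median was 0.04 without in vitro PSMPs replicate 1 and -0.80 without replicate 2. The mitochondrial ribosomal proteins gave -0.36 over 76 genes (0.07 without replicate 1) and the proteasome -0.32 over 36 genes (0.01 without replicate 1). Their median log2 difference between in vitro PSMPs replicates 1 and 2 was 0.66, 0.71 and 0.42 in that order. Rps12, of the small subunit, was at 7.94 and 9.94 CPM in in vitro PSMPs and at 3.45 and 2.62 CPM in SAHA (-1.56 ± 0.48), a difference of -1.71 without replicate 1. Ribosomal protein genes have many processed copies in the genome, so counts for single members are uncertain. Eif4b, an initiation factor that aids the helicase of the cap complex, was at 40.6 and 24.8 CPM against 11.6 and 10.3 CPM (-1.57 ± 0.47), whereas Eif4g2, an initiation factor used without the cap-binding protein, was at 212 and 361 CPM against 421 and 744 CPM (1.02 ± 0.39).

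Splicing factors also lay on both sides. Of 38 tested, 10 were above and 12 below without overlap. Sf3b4 was at 46.0 and 60.1 CPM in in vitro PSMPs and at 110 and 119.5 CPM in SAHA (1.11 ± 0.43). Sf3b3, of the same complex of the U2 particle, was at 45.9 and 17.9 CPM against 10.98 and 8.81 CPM (-1.69 ± 0.56), a difference of -0.85 without in vitro PSMPs replicate 1. Snrnp70, of the U1 particle, was at 54.5 and 99.9 CPM against 30.9 and 15.6 CPM (-1.73 ± 0.61), which differed from Sf3b3 in that in vitro PSMPs replicate 1 was the lower exposed library.

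Metabolism, stress and death genes showed no common direction. Nuclear oxidative phosphorylation had a median of -0.09 over 75 genes, which turned to 0.16 without in vitro PSMPs replicate 1. Glycolysis had a median of 0.26 over 22 genes, which was -0.14 without SAHA replicate 2. Within it the glucose transporter Slc2a1 was at 25.2 and 7.92 CPM against 6.85 and 4.55 CPM (-1.54 ± 0.55), a difference of -0.47 without in vitro PSMPs replicate 1. Ldha, a subunit of lactate dehydrogenase, was higher in SAHA at an unadjusted p of 0.0143, at 0.08 and 0 CPM against 3.17 and 2.10 CPM. Fatty acid oxidation had a median of 0.39 over 23 genes, and 0.11 without in vitro PSMPs replicate 2. The 30 genes of peroxide, superoxide and glutathione defence gave 0 unadjusted p under 0.05 and a median of 0.01, and the 22 of endoplasmic reticulum stress 0 and 0.18. Bcl2, an inhibitor of apoptosis, was under 1 CPM in all 4 libraries. Abcb1b, an efflux pump for drugs and xenobiotics, was at 223 and 300.1 CPM in in vitro PSMPs and at 553.5 and 491 CPM in SAHA (1.00 ± 0.41).

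Among all 50 lists, 33 had a median above 0 and 17 below, from -0.56 to 0.94, and 12 kept their sign over every alternative run, all 12 higher in SAHA. Besides those given above these were the lysosome (0.30), actin and spindle positioning (0.40), imprinted genes (0.44), and the markers of cumulus and granulosa cells (0.89) and of stromal, endothelial and epithelial cells (0.52). Some of these depended on 1 SAHA library. The median was 0.06 for cumulus and granulosa markers without SAHA replicate 1. Without SAHA replicate 2 it was 0.08 for stromal, endothelial and epithelial markers, 0.05 for the lysosome and 0.17 for actin and spindle positioning. Imprinted genes gave 0.24 without SAHA replicate 1 and 0.25 without in vitro PSMPs replicate 1. The median over all genes was 0.05, and -0.20 when libraries were scaled by their totals alone, so a list median is read from these. The lowest medians were those of genes of the 2-cell stage (-0.56 over 7 tested) and of replication-dependent histones (-0.54 over 27), and the latter was 0.11 without in vitro PSMPs replicate 2. The former ran from -0.83 to 0.27 over the alternatives, with -0.24 without in vitro PSMPs replicate 1. The endocytic genes Clta, Cltb and Rab5c, the first 2 of them light chains of clathrin, had an unadjusted p under 0.05, lower in SAHA. Cltb was at 116 and 36.2 CPM against 14.8 and 22.1 CPM (-2.04 ± 0.74). Without in vitro PSMPs replicate 1 the difference was -0.97 for Cltb, -0.22 for Clta and -1.66 for Rab5c.

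**Figure D5:**
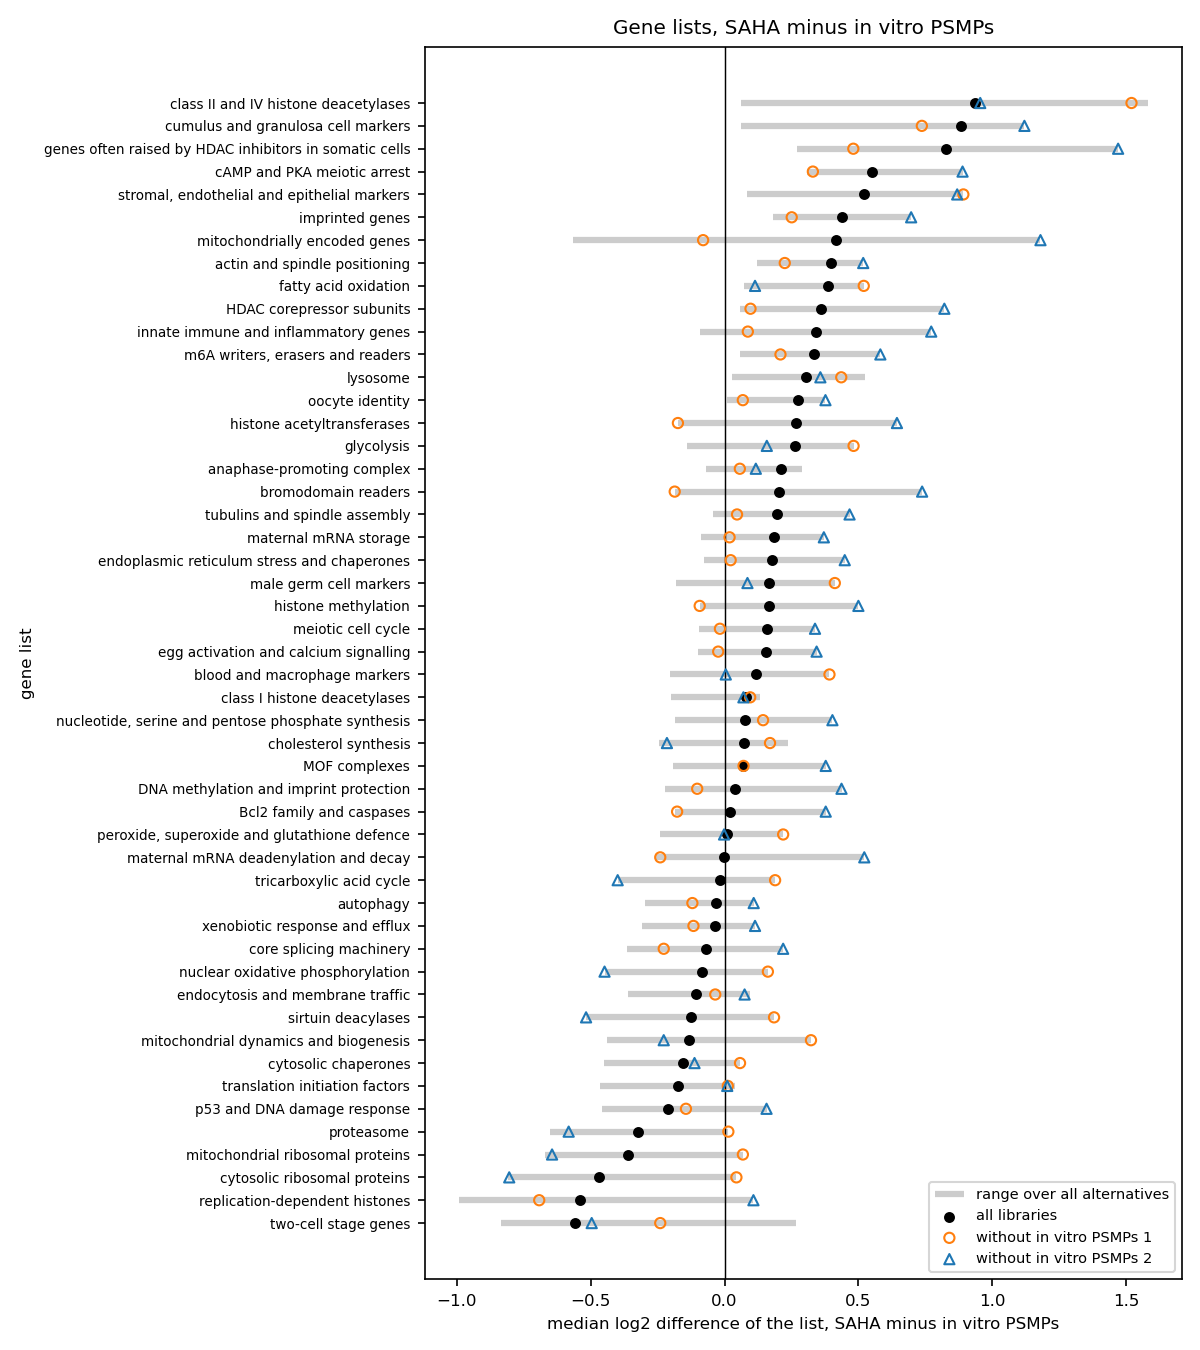
Median log2 difference, SAHA minus in vitro PSMPs, of each of 50 gene lists with all libraries (black), without in vitro PSMPs replicate 1 (orange circles) and without replicate 2 (blue triangles), with the range over all alternatives in gray. Cytosolic and mitochondrial ribosomal proteins and the proteasome move from -0.47, -0.36 and -0.32 to 0.04, 0.07 and 0.01 without replicate 1.

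Few genes were present in 1 group and at 0 in the other. With at least 1 CPM on average in the other group, 8 genes were at 0 in both in vitro PSMPs libraries and 1 in both SAHA libraries. Tec, a tyrosine kinase, had 26 and 30 counts in SAHA, at least 13.1-fold higher against a floor of 3 counts over the exposed group. Mbnl2, a splicing regulator, had 26 and 17 counts, at least 10.0-fold higher. Cxcl10, an interferon-induced chemokine, had 11 and 37 counts, at least 11.2-fold higher, and Prnp 7 and 46. The other 4 were Gm15668, Lipo2, Pkn3 and Csgalnact2, and Gm15668 had its counts in 1 library. The gene at 0 in SAHA was the unnamed model Gm10800, with 33 and 115 counts in in vitro PSMPs, at least 70.4-fold lower in SAHA. These genes hold few counts, and their presence in SAHA goes with the deeper libraries of that group, whose part was not tested gene by gene.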

How the data were processed

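RNA sequencing counts per gene were deposited by the authors for 55401 genes in 12 columns, as raw counts on build mm10. The submitters' processing notes name HISAT2, Bowtie2 2.2.5, SAMtools, featureCounts, fastp 0.12.4, deepTools 3.5.1, DESeq2 and Picard without roles. Of these, featureCounts is a counting tool, and its use of strand is not given in the sources used here. CUT&Tag libraries of the series were not analysed here. Groups came from the labels. The in vivo PSMPs columns, 2 in number, agreed within counting noise (chi-square 0.444 per degree of freedom) and were merged as 1 library, which left 11.

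In R 4.3.3, edgeR 4.0.16 kept 16736 genes (minimum count 10), scaled by TMM, and fitted all 6 groups in one robust quasi-likelihood model with 5 residual degrees of freedom and a biological coefficient of variation of 71.9%. SAHA was contrasted with in vitro PSMPs, and p-values were adjusted by Benjamini-Hochberg over all genes at 0.05. The standard error is the absolute log2 difference over the root of F. The procedure was tested on simulated data without systematic shifts between replicates, and no result above rests on that test.

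Named genes were the 12 largest differences per direction past the threshold or, since none passed, the 5 of smallest p per direction among genes of at least 10 CPM without overlap, plus deacetylases, sirtuins, Kat8, the 10 alike genes with most counts, and the member of smallest p per list. Other members of lists, and Id2 and Fos, were named after their values were seen. A gene that this rule selects is not reported here. The 50 lists (1398 genes, 2 not in the file) and the comparison were chosen with earlier results of these data known. Alternatives were other filters, scalings (DESeq2 size factors, library totals), DESeq2 1.42.0, fewer groups in the fit, thinned counts, a replicate block and each column left out.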

Additional observations from a re-analysis of the deposited data

How the results depend on the processing

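edgeR made 0 calls under every alternative run, including the 12 that leave out a column (0 to 0), and DESeq2's Wald test made 5. The unadjusted count under 0.05 was 407 with all groups in the fit. With only the SAHA and in vitro PSMPs libraries, 541 genes were higher and 1087 lower at that level, the lowest adjusted p was 0.131 and the biological coefficient of variation 36.8%. With con and con-in vitro left out of the fit the counts were 802 and 1516 and the lowest adjusted p 0.13. Without in vitro PSMPs replicate 1 they were 19 and 63, and without replicate 2 they were 239 and 330. With library totals they were 67 and 448. The number of alike genes moved from 366 to 705 with library totals, to 1651 with only the SAHA and in vitro PSMPs libraries, to 2396 with con and con-in vitro left out, and to 789 with the in vivo PSMPs columns kept apart, and ran from 28 (without SAHA replicate 2) to 716 (without con replicate 2) when a column was left out. The cause was not tested. The mean correlation between SAHA and in vitro PSMPs libraries ran from 0.951 without in vitro PSMPs replicate 2 to 0.978 without replicate 1. With the replicate number as a block edgeR made 0 calls and 341 genes were alike, and the numbers share no stated source. The deviations of the same-numbered replicates correlated at -0.108, so a crossed pairing was added after seeing the data, which gave 0 calls and 568 alike genes. Of 158 genes followed, 133 kept their sign under all alternatives, and of 50 list medians 12 did. Most of the 158 were picked by small p or after their values were seen, which favors a stable sign. Some alternatives, such as glmTreat, leave the log2 difference as it was. The 133 is thus no measure of how stable genes are in general. Against glmTreat's limit of a log2 difference of 1 there were 0 calls. Total counts near 10 M in in vitro PSMPs put 3 counts at up to 0.299 CPM, which limits what can be said of genes under 1 CPM, and 2 libraries per group limit all intervals.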
